A study of Mus musculus with 23 samples.

Results

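The genes described here are 44 genes of skeletal muscle, followed through the healing of full-thickness skin wounds in mice. They were taken by symbol, and all 44 were found among the 56379 genes of the count table and passed the filter on low counts that left 23083 genes for testing. By role, 12 belong to the fast adult fibre, 6 to the slow fibre, 8 to the sarcomere of every fibre, 5 to calcium handling, 5 to muscle metabolism and 3 to muscle signalling and growth control. The remaining 5 are embryonic or myogenic: Myh3, Myh8, Myog, Myod1 and Pax7. The other 39 are called adult genes here.

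All animals were HTNF ki/ki Lepr db/db mice of 8 to 12 weeks, so the controls carried both alleles too. Under isoflurane their backs were shaved and depilated and given 6 mm punch wounds that passed through the panniculus carnosus, covered with a transparent film, and every mouse received tramadol. Control mice received PBS, and treated mice received adalimumab, an antibody against TNF, at 20 mg/kg under the skin on days 0, 3, 7 and 10. Tissue was taken on days 0, 3, 7 and 10 as an 8 mm punch laid over the wound, which therefore also held a rim of unwounded skin. There were 3 libraries in each of the 8 groups except adalimumab at day 10, which had 2, giving 23 libraries in all. The labels do not say whether the day 0 tissue was taken before the first dose.

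The panniculus carnosus is a thin sheet of striated muscle beneath the skin of the mouse back, and it is the skeletal muscle a full-thickness punch passes through. An adult fibre is built of repeating sarcomeres, in which myosin heavy chains pull on actin and the troponin complex makes the pull depend on calcium. Fast and slow fibres use different paralogues of the same parts. After injury, Pax7-bearing satellite cells become myoblasts, switch on Myod1 and then Myog, fuse, and for a time use the embryonic and neonatal myosins Myh3 and Myh8 before adult myosins replace them.

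The promoters of 4 members that stand for the patterns described below are shown first: Myog and Myh3 for the regeneration genes, Myh4 for the fast fibre and Tnnt1 for the slow fibre. Each is the RefSeq sequence (GRCm38.p6) from 250 bases before to 50 bases after the annotated start, read 5′ to 3′ on the gene's strand. Capitals mark every E-box (CANNTG, a palindromic pattern, so that both strands are covered), the 6-base word that myogenic factors of the Myod1 and Myog family are known to bind. The Myog promoter is at chr1:134289754-134290053 on the plus strand, that of Myh3 at chr11:67078050-67078349 (plus), that of Myh4 at chr11:67237562-67237861 (plus) and that of Tnnt1 at chr7:4515926-4516225 (minus).
Myog: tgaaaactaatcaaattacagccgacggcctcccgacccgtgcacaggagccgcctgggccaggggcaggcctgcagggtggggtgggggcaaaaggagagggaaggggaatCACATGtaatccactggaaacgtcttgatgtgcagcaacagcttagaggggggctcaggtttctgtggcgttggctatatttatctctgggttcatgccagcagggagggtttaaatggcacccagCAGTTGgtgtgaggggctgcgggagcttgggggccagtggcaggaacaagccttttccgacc
Myh3: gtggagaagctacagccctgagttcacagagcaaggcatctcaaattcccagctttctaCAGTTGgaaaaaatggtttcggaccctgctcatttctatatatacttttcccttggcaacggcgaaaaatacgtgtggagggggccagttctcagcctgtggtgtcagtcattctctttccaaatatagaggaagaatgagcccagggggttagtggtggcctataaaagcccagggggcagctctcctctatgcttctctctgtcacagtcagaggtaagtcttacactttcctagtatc
Myh4: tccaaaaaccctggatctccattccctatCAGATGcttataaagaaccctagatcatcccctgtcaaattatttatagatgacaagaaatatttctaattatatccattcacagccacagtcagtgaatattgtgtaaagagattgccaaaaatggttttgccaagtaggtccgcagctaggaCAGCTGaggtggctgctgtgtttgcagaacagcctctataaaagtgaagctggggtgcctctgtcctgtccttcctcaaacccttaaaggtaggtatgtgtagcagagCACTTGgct
Tnnt1: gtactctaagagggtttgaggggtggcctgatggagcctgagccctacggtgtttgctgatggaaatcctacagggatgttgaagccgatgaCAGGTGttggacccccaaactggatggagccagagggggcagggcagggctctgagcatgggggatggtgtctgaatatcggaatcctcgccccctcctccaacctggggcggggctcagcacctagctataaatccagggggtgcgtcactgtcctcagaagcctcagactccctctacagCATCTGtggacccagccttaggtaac
The Myog promoter held 2 E-boxes, that of Myh3 held 1, that of Myh4 held 3 and that of Tnnt1 held 2. Of the 44 members, 33 matched a promoter, and 29 of these held at least 1 E-box, against 72.3% of all 32851 promoters in the table. The variant CAGCTG was in 16 of the 33, against 16.3% of all promoters, and of the 4 shown only Myh4 carried it. The word TATAAA, read on both strands, was in 10 of the 33, against 13.6% of all promoters. These are matches of letters and not measured binding. The member counts are of genes and the percentages are of promoters, so that they are not strictly comparable.

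The libraries held between 33080930 and 37494760 counts each. Levels are CPM, counts relative to the library's total after scaling by trimmed means. The female-specific transcript Xist and the Y-linked gene Ddx3y put all 12 libraries of days 0 and 3 in females, and those of days 7 and 10 in males except adalimumab day 7 replicate 3. Changes from days 0 or 3 to days 7 or 10 therefore cannot be told apart from sex. The column names give days 0 and 3 the same animals, so that 6 animals were sampled on both days and compared within 1 sex. A pair of day 7 libraries stood apart from the other 4 of that day in their muscle reads: control replicate 1 and adalimumab replicate 3. How many wounds a library pools is not given in the labels.

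Muscle genes made up 1.51 to 6.43% of all counts at day 0. At day 3 this share was 0.0717 to 0.269% in the controls and 0.400 to 1.09% with adalimumab. At day 7 it was 2.03% in control replicate 1, 0.212% in adalimumab replicate 3 and at most 0.0108% in the other 4 libraries. At day 10 it was 0.146 to 0.376%. Muscle RNA was thus high in intact skin, low at day 3 and close to absent in most day 7 wounds, and it was present again in all 5 libraries of day 10. In these bulk samples fewer muscle cells and less RNA per cell cannot be told apart.

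**Figure D1:**
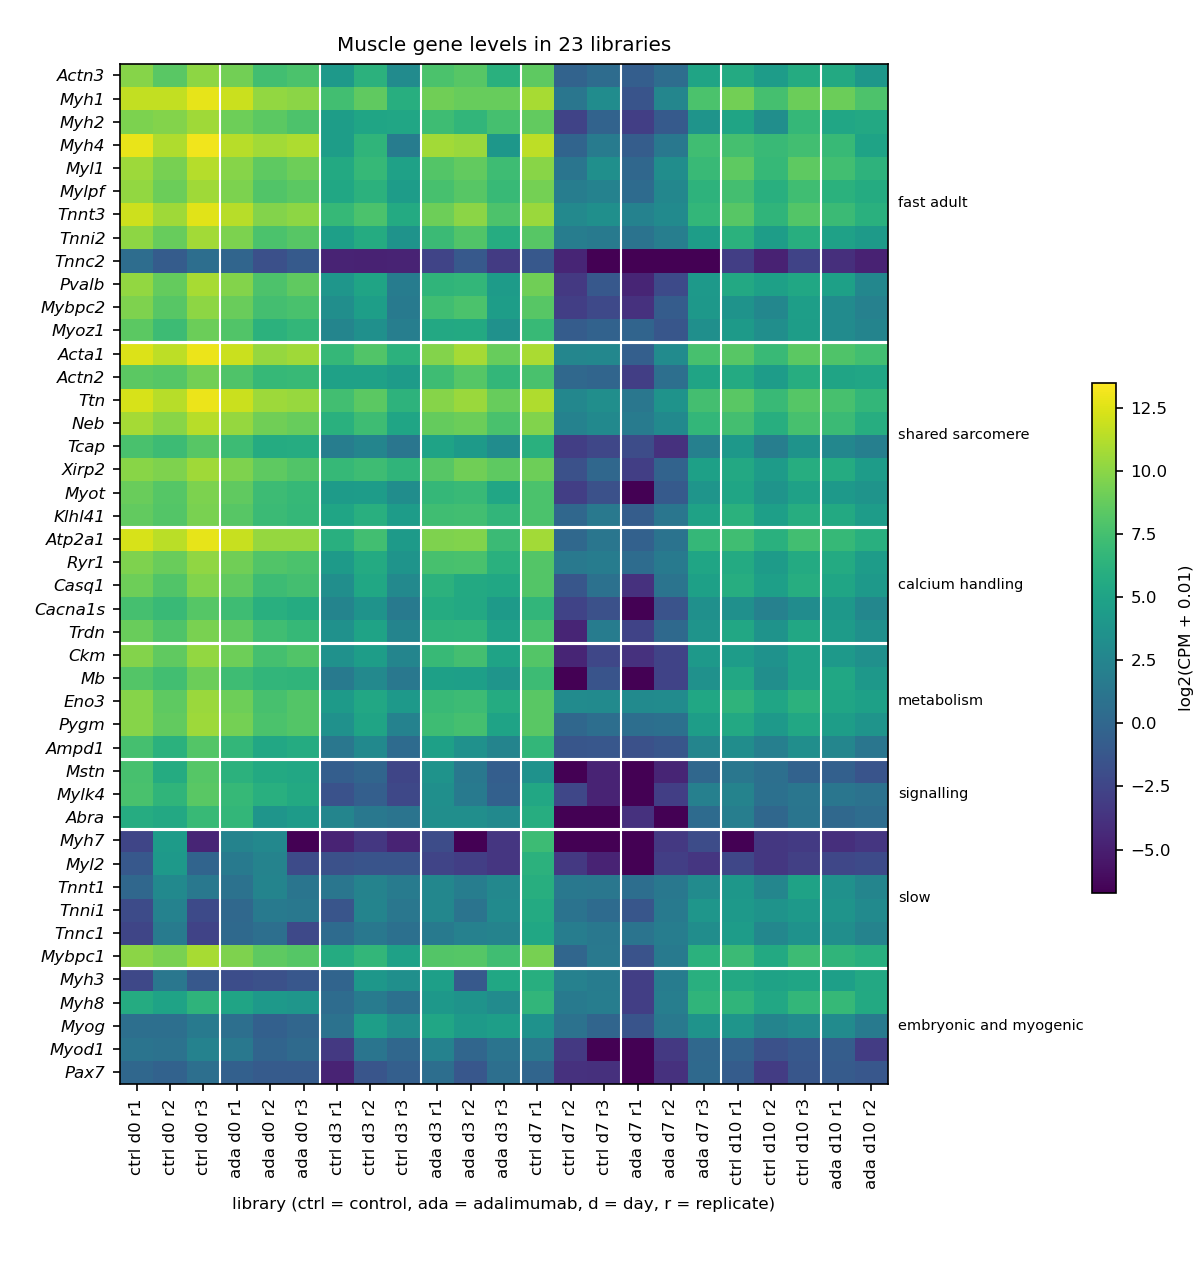
Heat map of the 44 muscle genes (rows, grouped by role) in the 23 libraries (columns, grouped by treatment and day), as log2 of CPM plus 0.01. The adult genes are bright in all day 0 columns and dark in 4 of the 6 day 7 columns, whereas the rows of Myh3, Tnni1 and Tnnc1 are brighter in the day 10 columns than at day 0.

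At day 0 the fast programme dominated. Per kilobase of exon, by the lengths of the GENCODE M21 annotation, skeletal actin Acta1, the thin filament's main protein, ranked 1 of 44, with a median of 2289 CPM per kb over the 6 libraries. Myh4, the heavy chain of the fastest (IIb) fibres, was at 7323, 2145 and 8519.6 CPM in the 3 control libraries and at 2569.6, 1648 and 2100.1 CPM in the 3 adalimumab libraries. Among the reads of the 6 skeletal myosin heavy chains counted here, Myh1, Myh2 and Myh4 together took 99.1 to 99.5% in every day 0 library. Myh3 and Myh8 took 0.460 to 0.553%. These shares carry a reservation, because 18.9 to 26.9% of the 50-base words of Myh1, Myh2, Myh4 and Myh8 recur in another myosin's transcripts, against 4.81% for Myh3, and the assignment of such reads is unknown.

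The slow-fibre genes did not form one block at day 0. Mybpc1, a myosin-binding protein, was at 296 to 1830.5 CPM and followed the fast genes over the 23 libraries. Myh7, the slow heavy chain, was at 0.165, 21.4 and 0.0304 CPM in the controls and at 5.04, 6.55 and 0 CPM with adalimumab. Its partner light chain Myl2 was at 0.441, 18.4 and 0.852 and 2.99, 5.15 and 0.223 CPM. Both were thus high in the same 3 libraries, control replicate 2 and adalimumab replicates 1 and 2, and low in the other 3. Myh7 shares 22.2% of its 50-base words with other transcripts, first of them the cardiac gene Myh6. The summed level of the heart muscle markers was between 4.48 and 36.8 CPM in all 23 libraries. It was highest in control day 7 replicate 1 and, within day 0, in control replicate 2 (12.5 CPM), the libraries that were also highest for Myh7. Elsewhere at day 0 the order differed. Adalimumab replicate 2, next highest for Myh7, was at 4.52 CPM, and control replicate 1, with Myh7 at 0.165 CPM, was at 9.26 CPM. The heart markers include Myl4, with a mean of 11.0 CPM, which is also among the myoblast and fusion genes described below. The part of heart-type transcripts in the Myh7 level was not tested. Tnnt1, the slow troponin T that ties the complex to tropomyosin, was at 1.02 to 7.49 CPM, against 852 to 6286 CPM for its fast paralogue Tnnt3.

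By day 3 most adult genes had fallen as means of both arms, and 2 regeneration genes had risen. The animals were uneven in this. In adalimumab replicate 2 the summed adult level was only 1.11-fold lower, and some adult genes, Acta1 among them, were higher than at day 0. In the adalimumab arm alone no adult gene was called lower. In edgeR's quasi-likelihood test with Benjamini-Hochberg adjustment over all 23083 genes, 31 of the 44 members fell and 2 rose between day 0 and day 3, as means of both arms. Of all genes tested, 43.3% were called in this comparison, 22.3% lower and 21% higher. Over the members the median difference was -3.17 on the log2 scale, beside -0.05 over all genes. The fall took in 11 of the 12 fast genes, all 5 of calcium handling, all 5 of metabolism and all 3 of signalling, but only 4 of the 8 shared sarcomere genes and 2 of the 6 slow genes. The number of calls was fragile: 15 members were called without control day 3 replicate 3, 15 without adalimumab day 3 replicate 3, 16 without control day 3 replicate 1, 18 without adalimumab day 0 replicate 1, 20 without control day 0 replicate 3 and 21 without adalimumab day 3 replicate 2. In every fit that left out 1 library 13 members kept their call, and they are Myog and Myh3 upward and Mstn, Mylk4, Eno3, Mb, Ampd1, Pygm, Ryr1, Tcap, Myoz1, Tnni2 and Tnnc2 downward. A fit to days 0 and 3 alone called 39 members, both without a block and with the animal as a block.

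Apart from Myh7, whose fall of 6.14 ± 1.93 (adjusted p = 0.0162) was at -3.03 and not called without control day 0 replicate 2, the largest falls at day 3 were in signalling genes. Mstn encodes myostatin, the secreted inhibitor of muscle growth. It was at 195, 52.5 and 295 CPM in control and 76.4, 47.1 and 43.4 CPM in adalimumab libraries at day 0, and at 0.615, 0.914 and 0.167 and 12.6, 2.60 and 0.637 CPM at day 3. The groups did not overlap, and Mstn fell by 5.85 ± 1.18 on the log2 scale (SE), or 57.7-fold (adjusted p = 0.000836). Mylk4, a member of the myosin light chain kinase family, went from 47.9 to 315 CPM at day 0 to 0.322, 0.645 and 0.195 CPM in control and 10.3, 2.85 and 0.713 CPM in adalimumab wounds. It fell by 6.52 ± 1.33 on the log2 scale, or 91.8-fold (adjusted p = 0.000894). The third, Abra, an actin-binding activator of serum response factor signalling, fell by 3.39 ± 1.16 on the log2 scale (adjusted p = 0.0252).

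The metabolic genes followed. Ckm, the muscle creatine kinase that buffers ATP, was at 859, 387 and 1177 CPM in control skin and 534, 189 and 252 CPM in adalimumab skin at day 0, and at 11.6, 23 and 5.73 and 123, 175 and 32.8 CPM at day 3. All 6 day 3 libraries lay below all 6 of day 0, and the gene fell by 3.74 ± 1.35 on the log2 scale (adjusted p = 0.0325). Myoglobin, Mb, the oxygen store, fell by 4.28 ± 1.28 (adjusted p = 0.0124), and Eno3, the muscle enolase of glycolysis, fell by 3.34 ± 0.78 (adjusted p = 0.00252). Pygm, which releases glucose units from glycogen, fell by 3.70 ± 1.10 (adjusted p = 0.0119), and Ampd1, the muscle AMP deaminase, fell by 3.86 ± 1.08 (adjusted p = 0.00817). All 5 metabolic genes were lower in every day 3 library than in any day 0 library, as were 18 of the 44 members, against 7.94% of all genes.

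Among the fast contractile genes, Myh4 was at 23.7, 91.3 and 3.50 CPM in the 3 control wounds and at 1700.3, 1393 and 16.1 CPM in the 3 adalimumab wounds of day 3. The first adalimumab wound was thus within the range of day 0 skin, the second just below it and the third with the controls. As the mean of both arms Myh4 fell by 4.13 ± 1.56 on the log2 scale, or 17.6-fold (adjusted p = 0.0394). Pvalb, the calcium buffer that speeds relaxation, fell by 4.40 ± 1.45 (adjusted p = 0.0207), and the troponin I paralogue Tnni2, which holds fast fibres relaxed, fell by 3.29 ± 0.94 (adjusted p = 0.00951). Atp2a1, the pump that returns calcium to the sarcoplasmic reticulum, fell by 3.84 ± 1.35 (adjusted p = 0.029). Ryr1, the release channel of the same store, fell by 2.96 ± 0.95 (adjusted p = 0.0179). The fast gene outside the call was Actn3, the Z-disc actinin of fast fibres, at -2.59 ± 1.15 (adjusted p = 0.0756). Myh4, Pvalb, Atp2a1 and Ckm were not among the members called in every fit without 1 library, whereas Tnni2 and Ryr1 were.

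The shared sarcomere genes were all lower on average at day 3, and 4 of them passed the threshold. Acta1 was at 111, 252 and 79.0 CPM in control and 886, 1717 and 440.4 CPM in adalimumab wounds at day 3, against 1241 to 7741 CPM at day 0, and fell by 3.14 ± 1.19 (adjusted p = 0.0404). Ttn, the giant spring of the sarcomere, fell by 2.96 ± 1.10 (adjusted p = 0.0377), and Tcap, the cap of titin at the Z-disc, fell by 3.92 ± 1.10 (adjusted p = 0.00816). Xirp2, an actin-binding repeat protein of the Z-disc region, was at 112, 147 and 90.6 and 307, 567 and 355 CPM, against 263 to 1570.5 CPM at day 0, and its difference of -1.71 ± 1.15 was not called (adjusted p = 0.24). The other members of this role outside the call were Myot at -3.01 ± 1.21 (adjusted p = 0.0522), Klhl41 at -1.90 ± 0.95 (adjusted p = 0.115) and Actn2 at -1.89 ± 1.03 (adjusted p = 0.148). Klhl41 stabilises thin filament proteins, Myot cross-links actin at the Z-disc, and Actn2 is the actinin of all fibres. In the fit to days 0 and 3 alone these 4 genes were called lower with or without the animal as a block. With the block the adjusted p was 0.0139 for Xirp2, 0.00402 for Myot, 0.0123 for Klhl41 and 0.0073 for Actn2, and without it 0.0021, 0.000676, 0.00274 and 0.00133.

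**Figure D2:**
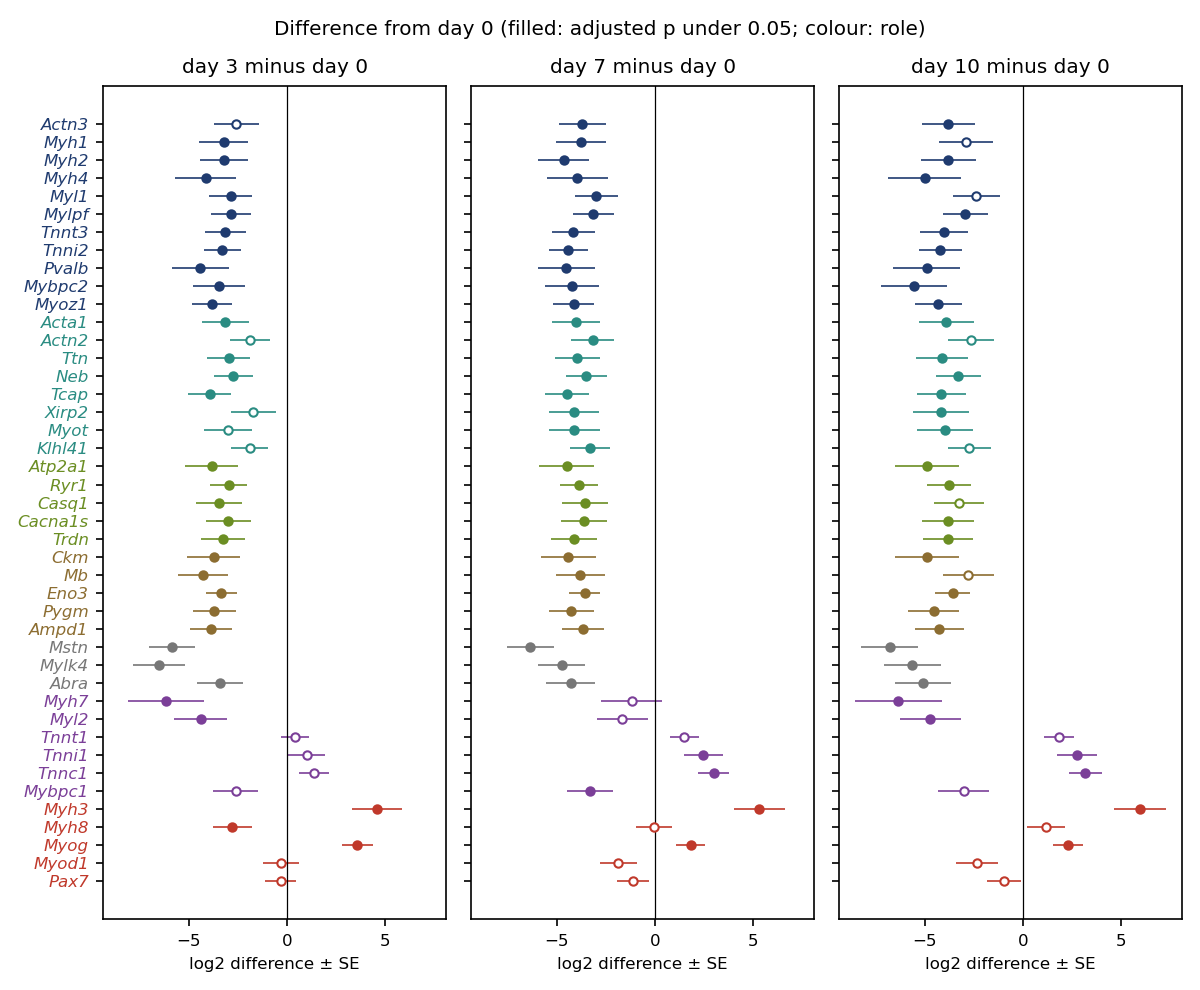
Log2 differences of days 3, 7 and 10 from day 0 with their standard errors, as means of both arms, for 43 members without Tnnc2. Filled points have an adjusted p under 0.05 and colours mark the role. Mylk4, Myh7 and Mstn lie farthest to the left at day 3, and Myh3 lies farthest to the right at each day.

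Since most adult genes moved together across the libraries, their levels were also set against Ttn within each library, a choice made after the values were seen and given as a description. In the 6 animals, the median over the 38 other adult genes of the change from day 0 to day 3 relative to Ttn was -0.22 on the log2 scale. Only 4 of the 38 rose relative to Ttn in all 6 animals. They were Xirp2, with a median of 1.27, Klhl41 with 1.23, the fast regulatory light chain Mylpf with 0.19, and Tnnc1, the slow troponin C, with 4.78. Lower relative to Ttn in all 6 animals were 9: Mylk4, Mstn, Mb, Pvalb, Atp2a1, Ckm, Tcap, Pygm and Myoz1. The 9 comprise 3 metabolic genes, 2 signalling genes, the calcium pump, the calcium buffer and the Z-disc proteins Tcap and Myoz1. At day 10, Xirp2 relative to Ttn overlapped the day 0 range again, whereas Klhl41 was 1.34 higher than at day 0, with no overlap. Klhl41 was not alone in this. Of the 38 genes, 17 did not overlap day 0 at day 10 relative to Ttn, 12 of them higher and 5 lower.

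**Figure D3:**
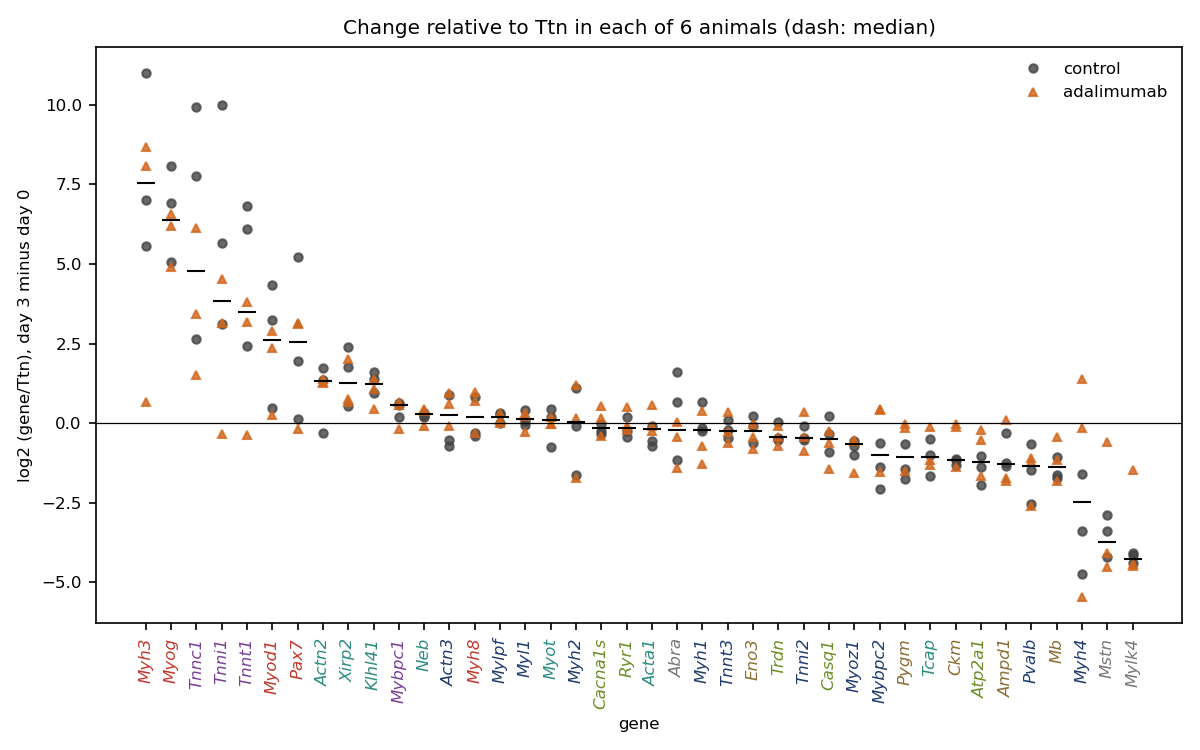
Change from day 0 to day 3 relative to Ttn within each of 6 animals, on the log2 scale, for the members other than Myh7, Myl2, Tnnc2 and Ttn. Circles are control animals, triangles adalimumab animals and dashes medians. Myh3 and Myog lie farthest above 0, with medians of 7.55 and 6.39.

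Of the 5 embryonic and myogenic genes, 2 rose at day 3, 1 fell and 2 were not called. Myog, the factor that commits myoblasts to differentiate, was at 1.63, 1.57 and 3.07 CPM in control and 1.56, 0.709 and 0.965 CPM in adalimumab skin at day 0. At day 3 it was at 1.84, 24.6 and 9.18 CPM in control and 37.6, 20.1 and 24.1 CPM in adalimumab wounds. Control replicate 1 was the only day 3 library inside the day 0 range. Myog rose by 3.58 ± 0.78 on the log2 scale, or 12.0-fold (adjusted p = 0.00156), and this stayed between 3.03 and 3.84 without any 1 library.

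Myh3, the embryonic heavy chain, was at 0.193, 2.53 and 0.457 and 0.247, 0.307 and 0.420 CPM at day 0, and at 0.878, 15.7 and 10.4 CPM in control and 26.5, 0.459 and 39.3 CPM in adalimumab wounds at day 3. It rose by 4.57 ± 1.25 (adjusted p = 0.00728), although control replicate 1 and adalimumab replicate 2 stayed below 1 CPM. Myh8, the neonatal heavy chain, went the other way and fell by 2.79 ± 0.99 (adjusted p = 0.0297), from 15.1 to 87.1 CPM at day 0 to 1.32, 3.28 and 1.67 and 16.9, 13.0 and 8.36 CPM, a call lost without any of 6 single libraries. Myh8 shares 21.4% of its 50-base words with other transcripts, first of them those of Myh2, Myh1 and Myh4. It took 0.448 to 0.543% of the myosin reads in every day 0 library and 0.603 to 1.44% at day 3. How many of its reads came from the adult myosins is unknown. The myoblast factor Myod1 and the satellite cell factor Pax7 were not called, at -0.30 ± 0.90 (adjusted p = 0.813) and -0.33 ± 0.78 (adjusted p = 0.761). Myod1 was at 0.0878, 2.23 and 1.03 and 4.82, 0.979 and 2.06 CPM at day 3, and Pax7 at 0.0293, 0.376 and 0.640 and 1.52, 0.428 and 1.58 CPM. Both were below their day 0 ranges of 0.875 to 4.72 and 0.519 to 1.58 CPM in control replicate 1, and Pax7 also in control replicate 2 and adalimumab replicate 2. In each of the 6 animals, however, Myog, Myh3 and Myod1 were higher relative to Ttn at day 3 than at day 0.

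The animals differed widely in how much muscle RNA was left at day 3. Summed over the 44 genes, CPM fell 38.1-, 9.23- and 100.4-fold in the 3 control animals and 3.56-, 1.11- and 3.69-fold in the 3 adalimumab animals. In the control arm alone 27 members were called lower and none higher, where 17.1% of all genes were lower and 17.5% higher. In the adalimumab arm alone none was called lower and 2 were called higher, Myog and Myh3, where 9.54% of all genes were lower and 11.9% higher. Whether the arms differed in this change was tested as an interaction, in which edgeR and DESeq2 called 0 of 44 members, against 1.81% of all genes in edgeR, with 4 members at an unadjusted p under 0.05. The median member interaction was 3.48 on the log2 scale and 43 of 44 were positive.

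Between the arms at day 3 the muscle genes stood higher with adalimumab, without passing the test. No member was called by edgeR or by DESeq2, against 0% of all genes in edgeR, and 1 member had an unadjusted p under 0.05. Over the members the median was 2.14 on the log2 scale and 43 of 44 were positive, beside a median of 0.03 over all genes. For 27 of the 44 members all 3 adalimumab libraries lay above all 3 control libraries, against 6.6% of all genes. These include all 8 shared sarcomere genes, 8 of the 12 fast genes and Myh8. Lower without overlap was 1 member, Myl2, against 8.5% of all genes.

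The standard errors of these differences were large. Myh4 differed by 4.71 ± 2.26 (adjusted p = 0.299), since adalimumab replicate 3, at 16.1 CPM, lay among the controls. Acta1 did not overlap between the arms, and its difference was 2.78 ± 1.66 (adjusted p = 0.4). For Mylk4 the difference was 3.56 ± 1.74 (adjusted p = 0.308), for Mstn 3.22 ± 1.55 (adjusted p = 0.3) and for Ckm 3.03 ± 1.85 (adjusted p = 0.413). Among the regeneration genes, Myh8 differed by 2.60 ± 1.40 (adjusted p = 0.352), Myog by 1.20 ± 1.00 (adjusted p = 0.568) and Myh3 by 1.30 ± 1.51 (adjusted p = 0.702). Myog was at or above 20.1 CPM in all 3 adalimumab wounds and in 1 of 3 control wounds.

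The marker ranges of other tissues also differed between the arms at day 3, in both directions. The summed level of the 8 adipocyte markers was 115 to 1427 CPM in control and 965 to 7589 CPM in adalimumab wounds, and that of the 6 endothelial markers 37.8 to 373 and 290.5 to 797 CPM. The 6 fibroblast markers summed to 11221 to 24388 CPM in control and 7645 to 14485 CPM in adalimumab wounds, and the 6 macrophage markers to 2740 to 7118 and 1752 to 4366 CPM. The neutrophil markers summed to 66.9 to 240 CPM in control and 194 to 2158 CPM in adalimumab wounds, and the smooth muscle markers to 76.4 to 255 and 238 to 431 CPM. The ranges for fat, vessel, neutrophils and smooth muscle thus lay higher with adalimumab and those for fibroblasts and macrophages lower. Each of these ranges overlapped that of the controls. Adalimumab replicate 1 also had 5.22 CPM of keratinocyte markers against 466 CPM or more in the other 5 wounds. The part of the amount of tissue in each punch in these differences was not tested.

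At day 0 the order of the arms was the reverse. The median member difference between adalimumab and control skin was -1.26 on the log2 scale and 43 of 44 were negative. None was called by edgeR or by DESeq2, against 0.269% of all genes in edgeR, and none had an unadjusted p under 0.05. Adjusted p-values ran from 0.592 to 0.942. For 6 members all 3 adalimumab libraries lay below the controls, against 5.74% of all genes. Hair follicle markers summed to 19.3, 2312 and 16509 CPM in the adalimumab libraries of day 0 and to at most 28.3 CPM in the controls, and their part in the muscle difference was not tested. The slow members depended on control replicate 2: without it the day 0 difference of Myh7 was 5.20, in place of -0.90 ± 2.00, and that of Myl2 was 2.08, in place of -1.23 ± 1.60.

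At day 7 the muscle genes were at their lowest in 4 of the 6 wounds. Myh4 was at 2944, 0.868 and 3.17 CPM in control and 0.602, 2.58 and 157 CPM in adalimumab wounds. Ckm was at 277, 0.0299 and 0.176 and 0.0602, 0.150 and 18.7 CPM, Xirp2 at 532, 0.299 and 1.03 and 0.120, 0.810 and 27.4 CPM, and Mstn at 12.4, 0 and 0.0294 and 0, 0.0300 and 1.05 CPM. Control replicate 1 was within the day 0 range for Myh4, Ckm and Xirp2, adalimumab replicate 3 was intermediate, and of the 39 adult genes 17 to 28 were under 1 CPM in each of the other 4 libraries, against 1 to 6 in every other library of the study.

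Despite that spread, 34 members were called lower and 4 higher at day 7 than at day 0, where 26.9% of all genes were called lower and 23.1% higher (49.9% in all). Over the members the median was -3.78, and -3.73 with Tnnc2 at the lower bound that its 0 reads in the adalimumab group allow. All 12 fast genes, all 8 shared sarcomere genes, all 5 of calcium handling, all 5 of metabolism and all 3 of signalling fell, together with Mybpc1 among the slow genes. Mstn fell by 6.33 ± 1.22 (adjusted p = 0.000398), Ckm by 4.41 ± 1.39 (adjusted p = 0.014) and Xirp2 by 4.12 ± 1.27 (adjusted p = 0.0121). Xirp2, not called at day 3, was at or under 1.03 CPM in those 4 wounds. Without control replicate 1 the median member difference was -6.97, and without adalimumab replicate 3 it was -5.28, and these fits called 40 and 38 members. Only 2 members were lower in all 6 day 7 libraries than in any day 0 library, against 13.4% of all genes. A fit to the groups compared alone called 22 members.

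The 4 that rose by day 7 were Myh3, Myog and the slow troponins Tnnc1 and Tnni1. Myh3 was at 63.9, 4.43 and 3.52 CPM in control and 0.120, 3.42 and 65.5 CPM in adalimumab wounds, and rose by 5.31 ± 1.29 (adjusted p = 0.00256). Tnnc1, the calcium sensor of slow troponin, was at 40.1, 3.71 and 2.67 and 2.11, 3.54 and 8.99 CPM, and rose by 2.98 ± 0.80 (adjusted p = 0.00492). It was above 2 CPM in all 6 wounds, 4 of which held the fast troponin T Tnnt3 at only 4.69 to 10.5 CPM, against 852 CPM or more at day 0. In adalimumab replicate 1 it was at 2.11 CPM, where the adult genes summed to 35.7 CPM and the embryonic and myogenic genes to 0.602 CPM. Which cells its reads came from was not tested. The calls of Myh3 and Tnnc1 held without any 1 library. Those of Myog (1.81 ± 0.74, adjusted p = 0.0498) and Tnni1 (2.45 ± 0.99, adjusted p = 0.0465) did not: without control day 7 replicate 1 Myog was at 0.89 and Tnni1 at 0.71, and without adalimumab day 7 replicate 3 at 1.00 and 1.59. Both also lost their calls without several of the day 0 libraries.

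Myh7 and Myl2 behaved unlike the rest of the slow set at day 7. Myh7 was at 140 CPM in control replicate 1 and at 0, 0.0901 and 0.235 CPM in the adalimumab libraries, with no read in the other 2 control libraries. In that 1 library Myh7 took 2.56% of the reads of the 6 myosins and Myl2 was at 79.4 CPM, above all day 0 libraries. The differences from day 0 were -1.19 ± 1.56 for Myh7 (adjusted p = 0.551) and -1.65 ± 1.29 for Myl2 (adjusted p = 0.302). Without control day 7 replicate 1 they were -8.04 and -6.01 and were called, and without control day 0 replicate 2 they were 1.94 and 0.09.

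No member was called between the arms at day 7 by edgeR, against 0% of all genes, while 21 members had an unadjusted p under 0.05 and DESeq2 called 1. The median member difference was -3.39, or -3.36 with Tnnc2 at its bound. It rested on control replicate 1: without that library the median was 3.12, and without adalimumab replicate 3 it was -6.55. For all 44 members the libraries of the arms overlapped, whereas 2.85% of all genes were higher and 3.71% lower without overlap. Day 7 against day 3 likewise gave 0 called members, where 17.3% of all genes were called, with 4 members at an unadjusted p under 0.05 and 2 called by DESeq2. Without control day 7 replicate 1 it gave 35, all lower, without adalimumab day 7 replicate 3 it gave 5, and without adalimumab day 7 replicate 1 it gave 1. Its median was -0.63, and it was -3.62 in the fit that left out control replicate 1 and -2.30 in the one that left out adalimumab replicate 3.

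**Figure D4:**
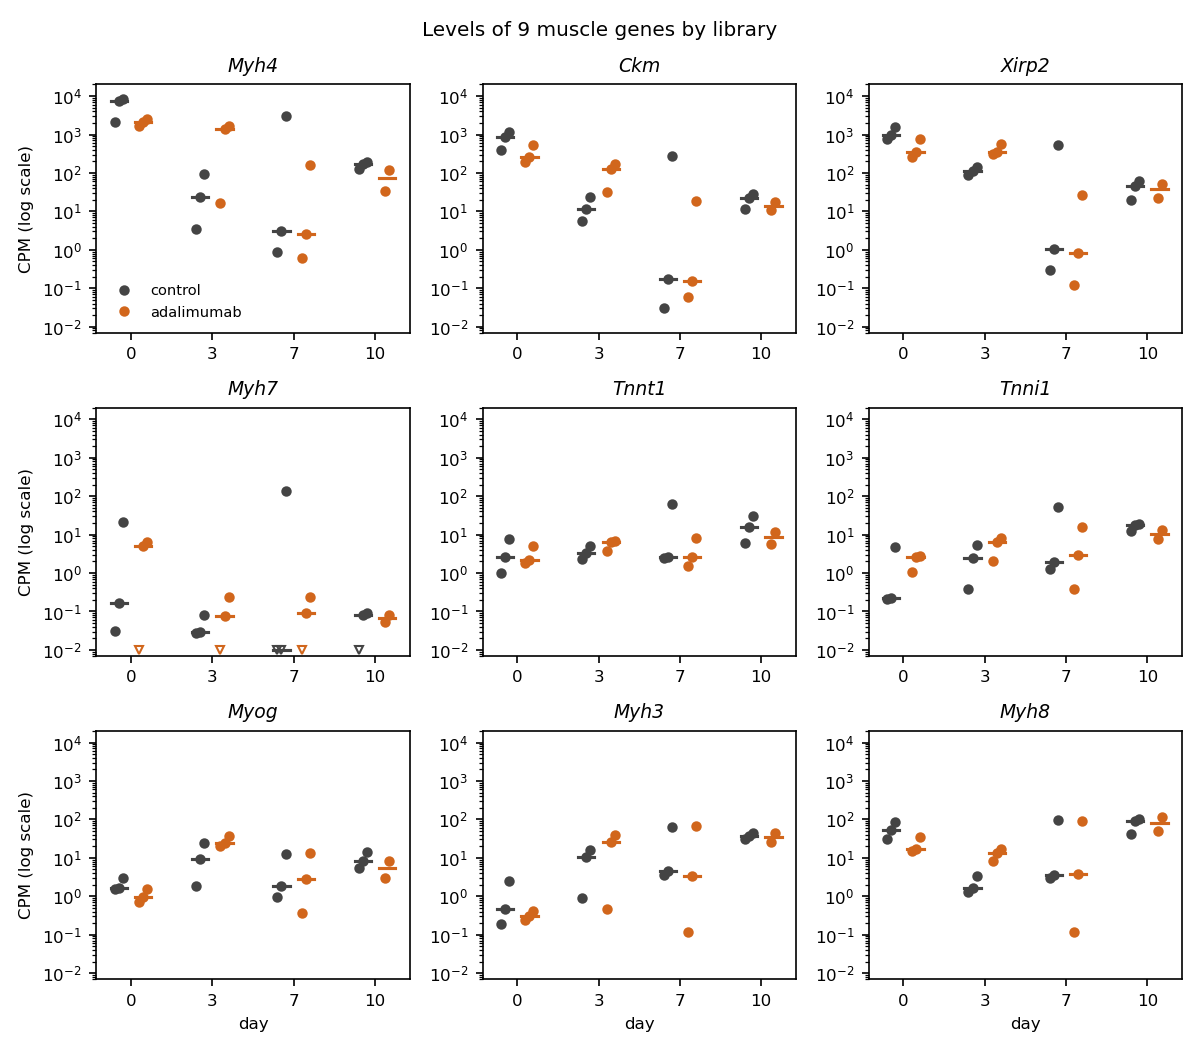
CPM on a log axis of 9 members in each library, by day. Points are libraries, bars group medians, grey the control and orange the adalimumab arm, and open triangles at the bottom mark 0 reads. Myh4 and Ckm span more than 3 powers of 10 at day 7, whereas Myh3 is above its day 0 range in all 5 day 10 libraries.

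By day 10 muscle genes were present in every wound at an even, low level, and the balance among them had changed. Myh4 was at 191, 126 and 171 CPM in control and 118 and 33 CPM in adalimumab wounds, and Ckm at 22.3, 11.8 and 28.4 and 17.3 and 11.1 CPM. Against day 0, 29 members fell and 4 rose, where 21.8% of all genes were called lower and 17.5% higher (39.4% in all). Their median was -3.81. For 36 members all 5 day 10 libraries lay below all 6 of day 0, against 14.7% of all genes, and for 3, Myh3, Tnni1 and Tnnc1, all lay above, against 12.5%. The 5 that overlapped were Myh7, Myh8, Tnnt1, Myog and Pax7. Only 7 members were called without either of the adalimumab day 10 libraries, which left that group with 1 library whose spread was taken from the other groups.

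At day 10 as at day 3, Mstn, Myh7 and Mylk4 were the members furthest below day 0. Mstn, at 2.53, 1.55 and 0.775 and 0.676 and 0.348 CPM, fell by 6.78 ± 1.43 (adjusted p = 0.00127), and Mylk4, at 4.94, 1.71 and 2.33 and 2.37 and 1.87 CPM, fell by 5.62 ± 1.44 (adjusted p = 0.0051). Mybpc2, the fast myosin-binding protein, fell by 5.53 ± 1.68 (adjusted p = 0.0143) and Myh4 by 5.00 ± 1.85 (adjusted p = 0.0392). The heavy chain Myh1 of IIx fibres was at 592, 182 and 508 and 492 and 236 CPM and was not called, at -2.90 ± 1.38 (adjusted p = 0.103). Only Mstn, Mylk4, Eno3 and Tnnc2 kept a call downward, and Myh3 and Tnnc1 upward, in every fit that left out 1 library.

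The regeneration genes at day 10 divided again. Myh3 was at 45.4, 31.4 and 36.2 CPM in control and 26.5 and 45.0 CPM in adalimumab wounds, all above the highest day 0 value of 2.53 CPM, and rose by 5.95 ± 1.34 (adjusted p = 0.00207). Myh8 was at 90.7, 42.4 and 103 and 114 and 48.6 CPM, above all 6 day 3 libraries and within reach of day 0, and its difference from day 0 was 1.16 ± 0.97 (adjusted p = 0.357). Relative to Ttn, Myh8 was 5.15 higher on the log2 scale at day 10 than at day 0, with no overlap, while its change at day 3 was a median of 0.20. Between day 3 and day 10, Myh8 and Tnnc1 were higher in all 5 day 10 libraries than in any of day 3, against 4.57% of all genes, and 1 member, Xirp2, was lower, against 4.45%. Myog was at 14.5, 5.41 and 8.40 and 8.14 and 3.05 CPM, and rose by 2.28 ± 0.77 (adjusted p = 0.0257), a call lost without control day 10 replicate 1 (2.12) or adalimumab day 10 replicate 1 (1.84). Myod1, at 0.823, 0.299 and 0.434 and 0.572 and 0.107 CPM, differed by -2.32 ± 1.06 (adjusted p = 0.091), and Pax7 by -0.98 ± 0.85 (adjusted p = 0.384).

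Between the arms at day 10 no member was called by edgeR or by DESeq2, against 0% of all genes in edgeR, and no member had an unadjusted p under 0.05. Their median was -0.71. For 3 members the adalimumab libraries lay below all controls, against 23.8% of all genes. In day 10 against day 7 neither edgeR nor DESeq2 called a member, against 0.00433% of all genes, with 1 member at an unadjusted p under 0.05. Its median of 0.13 rested on single libraries, and was 3.07 without control day 7 replicate 1 and -0.13 without control day 7 replicate 3.

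The change in balance is seen in ratios of genes within the same library. Of the reads of the 6 myosins, Myh3 and Myh8 took 1.00, 3.59 and 10.4% in the control wounds and 1.76, 0.687 and 6.84% in the adalimumab wounds of day 3, all above the 0.553% that was the highest at day 0. At day 7 they took 2.97% in the muscle-rich control replicate 1, and 69.3 and 35.7% in the other controls. In the adalimumab wounds they took 18.2, 44.2 and 28.8%, the first of them from 44 reads only. The Wilson 95% interval for that share was 9.51 to 32.0%, for the 69.3% it was 64.3 to 73.8% and for the 44.2% it was 40.1 to 48.4%, which cover counting error only. At day 10 they took 14.3, 18.8 and 15.0% in the controls and 17.8 and 23% with adalimumab. Myh2, the IIa heavy chain, took 32.8% in control replicate 3 and 26.2% in adalimumab replicate 3 of day 3, where Myh4 took 3.02 and 2.31%.

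**Figure D5:**
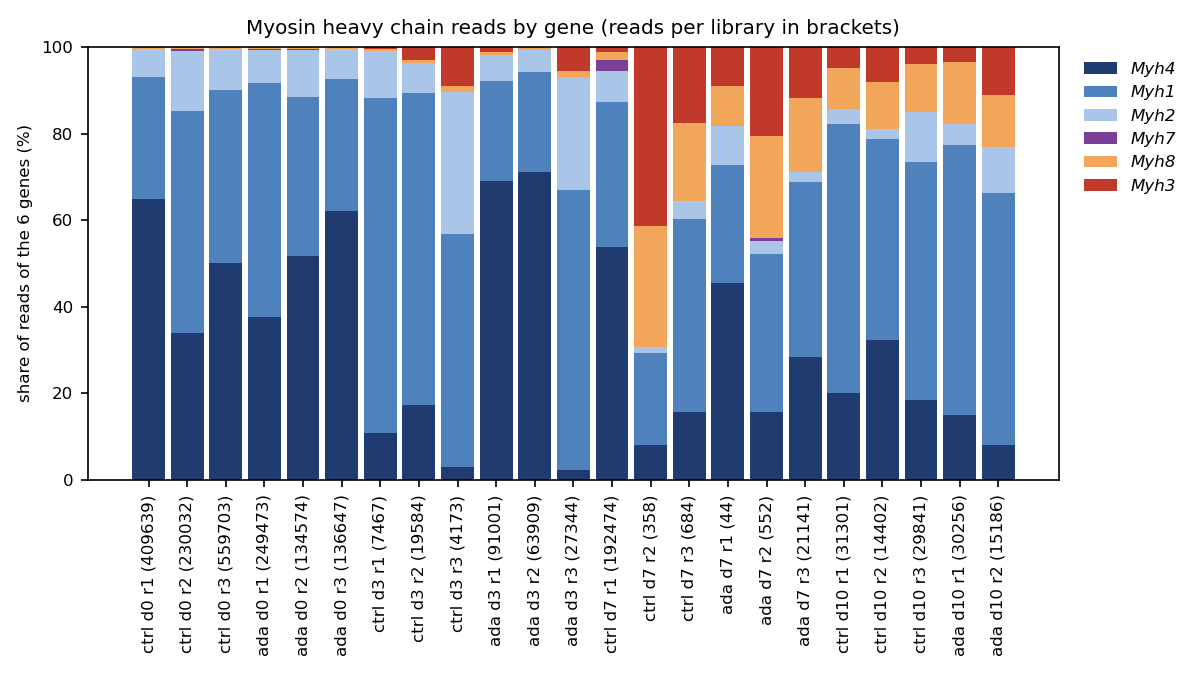
Shares of the reads of 6 myosin heavy chain genes in each library, in percent, with the number of reads in brackets. Myh1, Myh2 and Myh4 fill the day 0 bars, and Myh3 with Myh8 take 14.3 to 23% in the day 10 bars.

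The troponin pairs shifted in the same direction. Tnnt1 took 0.0262 to 0.604% of the reads of Tnnt1 and Tnnt3 at day 0, 0.366 to 6.04% at day 3, 4.19 to 26.8% at day 7 and 4.95 to 9.84% at day 10. Tnni1, the slow inhibitory subunit, took 0.0130 to 1.30% of the reads of Tnni1 and Tnni2 at day 0, 0.816 to 16.3% at day 3, 14.7 to 44.7% at day 7 and 19.6 to 35.0% at day 10. Within animals, both shares were higher at day 3 than at day 0 except in adalimumab replicate 2. There Tnnt1 went from 0.604 to 0.366% and Tnni1 from 1.30 to 0.816%. Such shares also rise when only the fast paralogue falls. In edgeR, Tnnt3 fell by 3.14 ± 1.04 at day 3 and by 4.16 ± 1.09 at day 7. Tnnt1 itself was not called at either day (adjusted p = 0.668 and 0.093). Tnni1 was not called at day 3 (adjusted p = 0.418). In the day 7 wounds with Tnnt3 at or under 10.5 CPM, Tnnt1 was at most 2.60 CPM. Whether those Tnnt1 reads came from muscle was not tested. On the log2 scale with 0.5 counts added, the ratio of Tnnt1 to Tnnt3 was 3.83 higher at day 3 than at day 0 and 7.09 higher at day 7. By two-sided exact permutation tests of 6 against 6 libraries, adjusted over the 6 ratio tests, the adjusted p-values were 0.00779 and 0.00433. The ratio of Tnni1 to Tnni2 was 4.68 and 7.70 higher (exact permutation, adjusted p = 0.0108 and 0.00433), and that of Myh3 to Myh4 was 9.14 and 11.8 higher (0.00649 and 0.00433).

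With the sign of the difference flipped within animals instead, day 3 gave an adjusted p of 0.0469 for Myh3 to Myh4, and of 0.0625 for both troponin ratios, which passes the threshold for the first only. The slow-fibre heavy and light chains showed no common shift. Myh7 took at most 0.543% of the myosin reads in every library but control day 7 replicate 1. Of the reads of Myh7 and Myh4 it took 0 to 0.987% at day 0 and 0 to 0.787% at day 3. Myl2 took 0.0377 to 3.58% of the reads of Myl2 and Mylpf at day 0 and 0.0407 to 1.62% at day 3. Its share went from 0.0527 to 1.62% in control replicate 3 and from 3.58 to 0.450% in control replicate 2. In control day 7 replicate 1 it was 11.1%. Tnnc1 at day 3 was at 1.29, 2.64 and 1.72 and 3.11, 4.41 and 4.92 CPM, a difference of 1.35 ± 0.76 from day 0 (adjusted p = 0.163) that was called in the fit to days 0 and 3 alone with the animal as a block (2.14, adjusted p = 0.0474), and not in that fit without the block (1.38, adjusted p = 0.152). Tnni1 was at 18.1, 12.6 and 18.5 and 13.1 and 7.63 CPM at day 10 and rose from day 0 by 2.74 ± 1.02 (adjusted p = 0.0409), a call lost without any of 10 single libraries. Tnnc1, at 21.9, 6.25 and 12.2 and 9.70 and 5.04 CPM, rose by 3.18 ± 0.82 (adjusted p = 0.00544). Tnnt1 was at 15.8, 5.87 and 30.4 and 11.5 and 5.65 CPM, and its difference was 1.85 ± 0.76 (adjusted p = 0.0597).

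Likeness across the 23 libraries followed these lines. The measure was Pearson's r of log2 CPM, given as a description, since the libraries share days, animals and the amount of muscle per punch. The median r over the 66 pairs of fast genes was 0.960, and within the shared sarcomere genes it was 0.983, within calcium handling 0.976 and within metabolism 0.965. Within the 15 pairs of slow genes it was 0.370, from -0.18 to 0.926, the highest being Myh7 with Myl2. With the mean of the adult genes, r was 0.86 for Myod1, 0.80 for Pax7, 0.69 for Myh8, 0.54 for Myh7, 0.26 for Tnnt1, 0.22 for Myog, 0.09 for Tnni1, -0.10 for Myh3 and -0.21 for Tnnc1. Myh3 was closest among the members to Tnni1, with r = 0.858.

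Among all genes with a mean of at least 1 CPM, those most alike to the mean of the adult genes included Srl (r = 0.993), Smyd1 and Ldb3 (both 0.989). Srl is a sarcoplasmic reticulum protein and Ldb3 a Z-disc protein. The most alike to Myog were the acetylcholine receptor subunits Chrnd (0.926) and Chrna1 (0.916), then Msln (0.901) and the fetal receptor subunit Chrng (0.854). The most alike to Myh3 were the cardiac actin Actc1 (0.928), which fetal muscle also uses, the fusion protein Mymk (0.915) and Chrng (0.858). Cd22 and Gpr183 followed at once (both 0.858). They and the rest of the 10 genes most alike to Myh3 are on none of the muscle lists described below.

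A further 94 genes of muscle biology, in 7 lists, were read beside the members, and 93 of them were in the table. At day 3, 44 of the 93 fell and 12 rose, and at day 7 and day 10, 61 and 54 fell and 8 and 10 rose. Of all genes 22.3, 26.9 and 21.8% fell and 21, 23.1 and 17.5% rose at these days, so that the share of the 93 that fell was above, and the share that rose below, that of all genes. Muscle metabolism fell almost throughout, with 12 of 14 lower at day 3 and 14 of 14 at days 7 and 10. Of the 26 sarcomere and Z-disc genes 13, 23 and 19 fell, and of the 13 excitation and calcium genes 9, 10 and 9. The sarcolemma list had 4 of 7 lower at each day. Between the arms edgeR called no gene of these lists at any day.

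Most of those that rose were on the lists of myoblast fusion and of the neuromuscular junction. Of the 14 myoblast and fusion genes 4 rose at day 3, 5 at day 7 and 7 at day 10, with 1, 3 and 3 lower. Beside the shares of all genes that rose, the counts of days 3 and 7 are near the background in a list this short, and that of day 10 is above it. Mymk, which makes myoblasts fuse, was at 0.0236 to 0.0742 CPM at day 0, 0.351, 7.15 and 2.48 and 7.95, 0.612 and 9.02 CPM at day 3 and 13.1, 4.38 and 7.69 and 6.04 and 3.05 CPM at day 10. It rose by 6.40 ± 1.22 at day 3 (adjusted p = 0.000501) and 6.88 ± 1.25 at day 10 (adjusted p = 0.000372), from a level close to no reads. As for Myh3, the 2 lowest of the day 3 wounds were control replicate 1 and adalimumab replicate 2. Actc1 rose by 3.35 ± 1.12 at day 3 (adjusted p = 0.0221) and 4.84 ± 1.20 at day 10 (adjusted p = 0.00415), and Ncam1, a cell adhesion protein that Schwann cells and nerve also carry, by 3.46 ± 0.36 at day 10 (adjusted p = 1.68e-06).

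Of the 12 genes of the junction and of denervation, 4 rose and 2 fell at day 3, 1 and 4 at day 7, and 2 and 2 at day 10, counts near the shares of all genes in both directions for a list of 12. The receptor subunits exchanged places. Chrng, the fetal gamma subunit, had no read in 4 of 6 day 0 libraries and at most 0.0304 CPM in the others, and was at 0.498, 4.06 and 1.39 CPM in control and 5.30, 0.888 and 5.02 CPM in adalimumab wounds at day 3. Chrne, the adult epsilon subunit, was at 0.544 to 4.99 CPM at day 0 and 0 to 0.812 CPM at day 3, and fell by 3.20 ± 0.78 (adjusted p = 0.00352). The delta subunit Chrnd rose by 2.64 ± 0.85 (adjusted p = 0.019). Of the 7 atrophy genes 3 fell and 1 rose at each day. Fbxo32, a ubiquitin ligase of wasting muscle, fell by 2.19 ± 0.45 at day 3 (adjusted p = 0.000954). Trim63, another such ligase, was at 3.95, 20.4 and 1.72 CPM in control and 57.3, 245 and 18.0 CPM in adalimumab wounds at day 3, so that adalimumab replicate 2 lay above all 6 day 0 libraries, whose highest was 85.3 CPM.

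Several members are read with limits of the counting. Tnnc2, the fast troponin C, had at most 52 reads in any library and none in the adalimumab wounds of day 7, and 74% of its exon bases lie under the oppositely transcribed gene Ube2c in the GENCODE M21 annotation of GRCm38. For Mb the share under genes of the opposite strand is 31.9%, for Atp2a1 21.9% and for Cacna1s 20.0%. The kit keeps the strand, but whether the counting used it is unknown. Myl1 shares 23.4% of its 50-base words with the pseudogene Mylf-ps.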

How the data were processed

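RNA from skin and wound punches was sequenced as single 50-base reads from stranded total RNA libraries, per the labels' protocols. The authors deposited 1 table of raw counts per gene symbol for 23 libraries, with no normalization. Per the submitters' processing notes, STAR was used and the build was GRCm39. The sources used here name neither the counting program nor its annotation or strand setting.

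Libraries were assigned to the 8 groups by their labels. Genes were kept by filterByExpr (minimum count 10, minimum total 15). Counts were scaled by TMM and fitted in edgeR 4.0.16 (R 4.3.3, limma 3.58.1) with the quasi-likelihood test, with 1 mean per group over all 23 libraries. Adjusted p-values are Benjamini-Hochberg values over the 23083 genes tested, and a gene is called below 0.05. "Rose" and "fell" are used of called genes. Log2 differences carry standard errors. Time contrasts average both arms. The test was run on simulated counts with few changed genes and independent libraries. That setting cannot show how it performs here, where many genes changed and days 0 and 3 share animals. Replicates varied by 42.5% (biological coefficient of variation). Shares have Wilson 95% intervals. A group at 0 reads is set at a bound of 3 counts over the group. Ratios were tested by exact permutation in scipy 1.17.1 (Python 3.11.15).

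The members, the lists beside them and the cell type markers were chosen with earlier results of these data known. Genes named with tests are a fixed panel, every member past the threshold, and in each role those next to it. Members outside these were named after their values were seen. The pairing of days 0 and 3 comes from animal names in the column names. Deviations of the same animal from the group means correlated, over all genes, at -0.08, -0.04 and -0.07 in the controls and at 0.26, -0.11 and 0.26 with adalimumab. Alternatives were DESeq2 1.42.0, other size factors, other filters, a block, only the groups compared, and leaving out each library. Exon overlaps and shared words are from GENCODE M21 (GRCm38), and promoters from RefSeq (GRCm38.p6), both of another build than the counts. A gene among those most alike to the adult genes is not reported here.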

Additional observations from a re-analysis of the deposited data

How the results depend on the processing

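With the replicate number as a block, 20 members (2 higher, 18 lower) were called at day 3 against day 0, in place of 33, and no other count of calls moved by over 1.5 times under this block. In the fit to days 0 and 3 alone, 39 were called with the animal as a block and 39 without a block. With signs flipped by animal, the replicate block gave the day 3 ratio differences of Tnnt1 to Tnnt3 (3.83) and Tnni1 to Tnni2 (4.68) an adjusted p of 0.0625. Fitting only the groups compared gave 22 calls (2 higher, 20 lower) at day 7 against day 0, in place of 38. DESeq2 called 1 member between the arms at day 7 and 2 at day 7 against day 3, in place of 0. Other size factors and filters kept every count of calls within 1.5 times, and moved the median of all genes by at most 0.09.

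Leaving out 1 library at a time gave 15 to 32 calls at day 3 against day 0, 33 to 40 at day 7 against day 0, 7 to 31 at day 10 against day 0 and 0 to 35 at day 7 against day 3. It gave 0 calls between the arms at each day, in the interaction and at day 10 against day 7. The median member difference ran from -6.55 to 3.12 between the arms at day 7 and from -0.13 to 3.07 at day 10 against day 7. Ratio differences at day 3 and day 7 were 3.38 to 4.30 and 6.63 to 7.53 for Tnnt1 to Tnnt3, 3.92 to 5.24 and 6.94 to 8.25 for Tnni1 to Tnni2, and 8.10 to 10.7 and 11.1 to 12.7 for Myh3 to Myh4.

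Single members were followed in the comparisons of days 3, 7 and 10 with day 0 and of the arms at days 0 and 3. Those that changed sign there without 1 library were these. Between the arms at day 0, Myh7 ran from -1.57 to 5.20, Myl2 from -2.09 to 2.08, Tnnt1 from -0.94 to 0.74, Tnnc1 from -0.91 to 2.59 and Tnni1 from -0.22 to 3.29. Between the arms at day 3, Myh7 ran from -0.19 to 1.81. At day 7 against day 0, Myh7 ran from -8.04 to 1.94, Myl2 from -6.01 to 0.089, Myh8 from -2.00 to 0.27 and Tnnt1 from -0.081 to 2.08. Over the 44 members in these 5 comparisons, leaving out 1 library ended 263 calls and added 14. The cause was not tested. Tnnc2, Myh7 and Mymk had few or no reads in many libraries, which limits what their values can show.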

Other observations

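Ankrd1, a stretch-responsive protein of the titin spring, was at 36.9, 50.8 and 11.0 CPM in control and 72.2, 245 and 70.4 CPM in adalimumab wounds at day 3, against 1.43 to 21.5 CPM at day 0, and rose by 3.62 ± 0.86 on the log2 scale (edgeR, adjusted p = 0.00279). The wound with the highest Ankrd1, adalimumab day 3 replicate 2, was also the one with the highest Trim63, at 245 CPM.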
